A study of Mus musculus with 8 samples.

Results

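Spiny projection neurons are the output cells of the striatum, and 8 genes that mark them were followed here from young adult to aged mouse brain: Penk, Tac1, Drd1, Drd2, Adora2a, Ppp1r1b, Pde10a and Pde1b. The members were taken by gene symbol, each matched to 1 Ensembl identifier among the 22430 genes of the count table. The libraries came from one brain hemisphere each of 4 male C57Bl/6JRj mice of 6 months (6m, young adult) and 4 males of 24 months (24m, aged), an inbred strain with no transgene or treatment. RNA was read by nanopore direct RNA sequencing, in which each native polyadenylated molecule is threaded through the pore without amplification, and the deposited values are raw reads per gene. The labels name a short-read poly(A) kit instead, and the description in the methods was followed. Because a hemisphere holds many regions, fewer striatal cells and less RNA per striatal cell cannot be told apart in these libraries.

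Projection neurons of the striatum are GABAergic and fall into a direct and an indirect pathway class with opposite effects on movement. Direct pathway neurons carry the D1 dopamine receptor (Drd1), which raises cAMP, and make substance P (from Tac1). Indirect pathway neurons carry the D2 dopamine receptor (Drd2), which lowers cAMP, together with an adenosine receptor (Adora2a), which raises it, and make enkephalin (from Penk). Both classes hold DARPP-32 (from Ppp1r1b), a protein that inhibits protein phosphatase 1 once protein kinase A has phosphorylated it, and the phosphodiesterases Pde10a and Pde1b, which degrade cyclic nucleotides. Several members are not restricted to the striatum: Penk and Tac1 are also made by neurons of the hypothalamus and amygdala, and Pde1b by neurons of the cortex and hippocampus.

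The peptides and the phosphorylation site are read directly from the coding exons of these mRNAs in the GENCODE transcripts for GRCm39. The canonical Penk coding sequence has 268 codons. It holds the codons of Met-enkephalin 6 times and those of Leu-enkephalin 1 time, all in exon 2 of 2. Of these, the first and the last Met-enkephalin copy (minus strand, chr4:4134328-4134354 and chr4:4133842-4133868) and the Leu-enkephalin copy (chr4:4133935-4133961) are shown to make plain that 1 Penk molecule encodes many peptides. For Tac1, with 115 codons, the carboxyl ends of substance P (exon 2 of 5, plus strand, chr6:7556744-7556773) and neurokinin A (exon 4, chr6:7559110-7559139) are shown, as the shared ending defines tachykinins. For Ppp1r1b, with 194 codons, the protein kinase A site lies in exon 2 of 7 (plus strand, chr11:98241398-98241424). Capitals mark the codons of the peptide, of the tachykinin ending or of the kinase site, and lower case the codons on either side. In every Penk copy shown, the lower-case codons before the peptide encode a pair of basic residues at which the precursor is cut. Behind the last Met-enkephalin copy the coding sequence ends with codons for arginine and phenylalanine, so no such pair follows that copy.
Penk, first Met-enkephalin copy: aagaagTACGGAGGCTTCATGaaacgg
Penk, last Met-enkephalin copy: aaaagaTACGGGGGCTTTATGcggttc
Penk, Leu-enkephalin copy: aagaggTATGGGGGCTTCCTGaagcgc
Tac1, substance P ending: cagcagTTCTTTGGATTAATGggcaagcgg
Tac1, neurokinin A ending: gattccTTTGTTGGACTAATGggcaaaaga
Ppp1r1b, protein kinase A site: cggcgcCGGAGACCAACCCCTgccatg

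Library totals lay between 573152 and 1255424 reads on genes, so that 3 reads, the most that a count of 0 allows, correspond to between 2.30 and 5.42 CPM, counts scaled to the TMM-adjusted size of each library. This limit covers counting error only. Levels are given as mean ± SD over the 4 libraries of an age, and each library is 1 mouse. Genes with a mean count over 5 (9375 genes) entered the quasi-likelihood test of edgeR for 24m against 6m. A gene is called changed where its Benjamini-Hochberg adjusted p (padj) does not exceed 0.05 and its log2FC reaches 0.58 in size. Neurons, astrocytes, oligodendrocytes and microglia were all represented by their markers, and among the regional markers Sim1 of the hypothalamus and Tbx21 of the olfactory bulb had no read in any library.

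None of the 7 members that could be tested was changed between 24m and 6m by edgeR, beside 14.5% of all tested genes, and 2 (Ppp1r1b and Pde1b) had an unadjusted p under 0.05. DESeq2 and limma-voom called none either. Their log2FC ranged from -0.37 (Pde10a) to 0.38 (Ppp1r1b) with a median of 0.14, against a median of -0.003 over all tested genes, and 4 of the 7 were positive. Drd1 was too low to test. In no tested member did the CPM of the 4 aged libraries separate from those of the 4 young adult libraries, beside 21.1% of all tested genes. Among only 7 genes, counts of 0 are not far from the shares of 14.5% and 21.1%, and are not read as a trait of the members. Ppp1r1b alone had a padj under 0.05, a criterion met by 21.7% of the tested genes, at a log2FC under the fold minimum. For Penk, Tac1 and Adora2a the 95% interval of the log2FC in this fit lay within the fold minimum on both sides, so these 3 bounds are narrower than a 1.49-fold change. The lower bound of Adora2a, -0.57, was only just inside, and intervals under other scalings or without a library were not compared. For the other tested members the depth leaves room for a change of that size in at least 1 direction. The plot of levels by library shows each value.

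**Figure D1:**
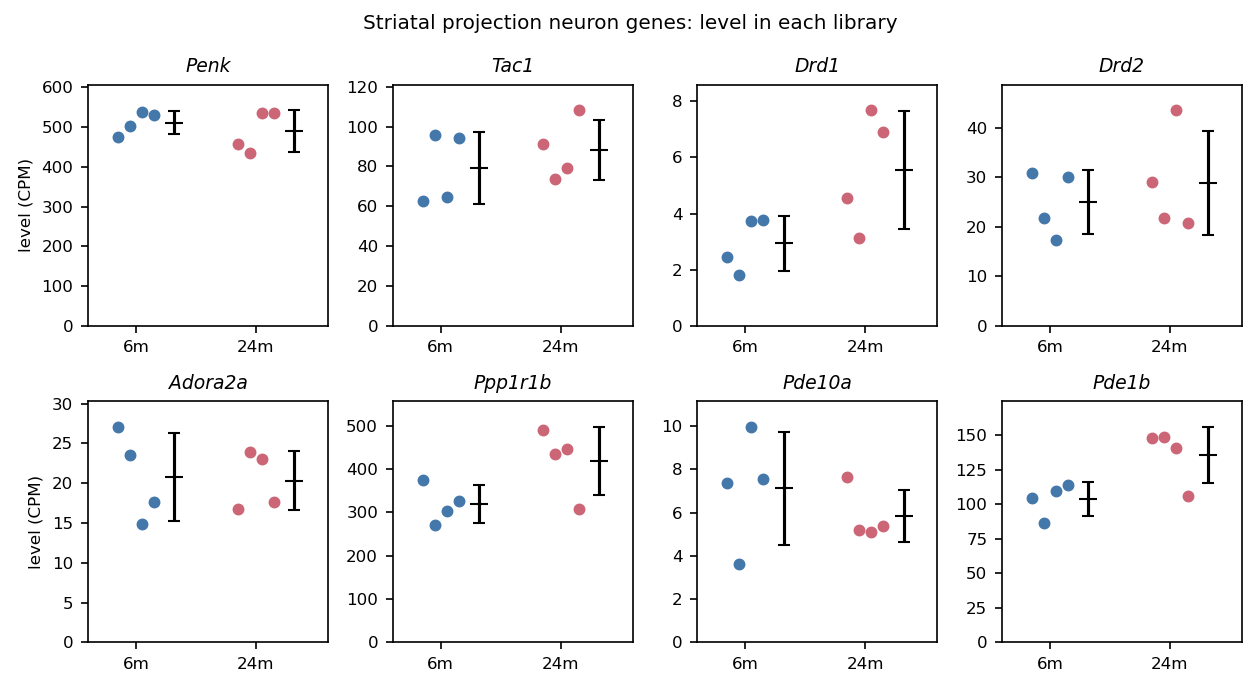
Level (CPM, linear axis from 0) of each of the 8 genes in the 4 young adult (6m, blue) and 4 aged (24m, red) libraries, 1 point per mouse, with mean and SD in black. Penk points of both ages lie between 435.6 and 537.7 CPM; for Ppp1r1b and Pde1b, 3 of the 4 aged points lie above every young adult point and aged replicate 4 lies among them.

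Of the peptide precursors, Penk (ENSMUSG00000045573, GRCm39 chromosome 4, 4132722 to 4141856, minus strand) had 475.1, 502.7, 537.7 and 529.9 CPM in the young adult libraries and 457.3, 435.6, 534.9 and 534.6 CPM in the aged libraries, from 278 to 697 reads each. Aged replicates 1 and 2 were below every young adult library, while the other aged libraries were among the highest of all. The means were 511.3 ± 28.4 CPM at 6m and 490.6 ± 51.8 CPM at 24m, a log2FC of -0.06 (SE 0.0935, 95% interval -0.25 to 0.13, padj = 0.705 from edgeR). Penk thus varied little among mice, with a coefficient of variation of 5.56% at 6m, close to the 5.13% that counting alone gives, and of 10.5% at 24m against 4.67% from counting.

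Tac1 (ENSMUSG00000061762, chromosome 6, 7554120 to 7565834, plus strand) had 62.8, 95.8, 64.7 and 94.2 CPM at 6m, against 91.5, 73.8, 79.3 and 108.2 CPM at 24m. The aged values lay within or just above the young adult range, which itself held a lower and a higher pair. The log2FC was 0.18 (SE 0.168, 95% interval -0.17 to 0.53, padj = 0.487 from edgeR), smaller than the spread among mice of an age.

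Of the enzymes that release and finish these peptides, Pcsk2, a prohormone convertase that cuts at basic pairs, had a log2FC of -0.005 (SE 0.123, padj = 0.985 from edgeR), and the other convertase, Pcsk1, one of -0.48 (SE 0.43, padj = 0.458). Cpe, the carboxypeptidase that trims the basic residues left behind, was the most abundant of the set by reads and had a log2FC of 0.21 (SE 0.162, padj = 0.386 from edgeR). Pam, which amidates peptides such as substance P, had 46.8, 27.1, 37.3 and 35.2 CPM at 6m, against 25.9, 21.8, 26.9 and 18.4 CPM at 24m. Every aged library was below every young adult library, and Pam fell, with a log2FC of -0.71 (SE 0.224, padj = 0.0239 from edgeR). The Pam call was lost in 7 of 20 alternatives, among them DESeq2 on raw counts, with padj up to 0.129. The opioid receptors Oprd1, Oprm1 and Oprk1 and the substance P receptor Tacr1 had between 3 and 14 reads over all libraries together and were not tested.

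Among the receptors, Drd1 (ENSMUSG00000021478, chromosome 13, 54204872 to 54209760, minus strand) had 2, 1, 3 and 3 reads in the young adult libraries and 3, 3, 6 and 9 reads in the aged libraries. The young adult libraries were all at or under 3 reads, and so were aged replicates 1 and 2, so no fold change is given. In CPM the means were 2.94 ± 0.97 at 6m and 5.57 ± 2.10 at 24m, a difference that missed the threshold in an exact permutation test (two-sided, p = 0.0857, n = 4 each, where 0.029 is the smallest p the design allows). Summed over the libraries of an age, Drd1 amounted to 9 reads among 3074304 at 6m and 21 reads among 3562368 at 24m.

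Drd2 (ENSMUSG00000032259, chromosome 9, 49251654 to 49319477, plus strand) had 30.8, 21.7, 17.4 and 30.1 CPM at 6m, against 29.0, 21.8, 43.5 and 20.7 CPM at 24m. A single aged library, replicate 3, was above the young adult range and the other 3 were within it. The log2FC was 0.14 (SE 0.266, 95% interval -0.41 to 0.68, padj = 0.761 from edgeR) at a mean of 22 reads, and its sign turned without young adult replicate 3 (-0.01) or aged replicate 3 (-0.12).

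Adora2a (ENSMUSG00000020178, chromosome 10, 75152560 to 75170628, plus strand), whose receptor sits beside the D2 receptor in indirect pathway neurons, had 27.1, 23.5, 14.9 and 17.6 CPM at 6m, against 16.8, 23.9, 23.0 and 17.6 CPM at 24m. All aged libraries lay inside the young adult range. The log2FC was -0.02 (SE 0.266, 95% interval -0.57 to 0.53, padj = 0.967 from edgeR), and its sign is not defined, since it changed with the scaling and with the library left out. The other adenosine receptor that was tested, Adora1, which lowers cAMP and is found in most brain regions, had 11.1, 10.9, 9.96 and 15.1 CPM at 6m, against 18.3, 23.9, 42.2 and 19.9 CPM at 24m. Adora1 rose without overlap between the ages (log2FC 1.11, SE 0.313, padj = 0.0128 from edgeR), although this was no longer significant without aged replicate 3 (padj = 0.0821), and its exons share 3361 bases with the more abundant Mybph on the opposite strand, which matched 58.1% of the Adora1 transcript at 95% identity or more (96.9 ± 19.9 CPM at 6m, 91.6 ± 14.7 CPM at 24m). Whether Adora1 and Adora2a differed in their change was not tested. The remaining dopamine and adenosine receptors, Drd3, Drd4, Drd5 and Adora2b, had between 1 and 22 reads in all and were not tested.

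Ppp1r1b (ENSMUSG00000061718, chromosome 11, 98239169 to 98248624, plus strand) had 375.4, 271.2, 302.4 and 325.2 CPM at 6m, against 489.3, 434.6, 445.3 and 307.6 CPM at 24m. In 3 aged libraries the DARPP-32 mRNA was above every young adult library, and in aged replicate 4, the most deeply sequenced, it was within the young adult range. The means were 318.6 ± 43.9 and 419.2 ± 78.1 CPM, a log2FC of 0.38 (SE 0.122, 95% interval 0.13 to 0.63, padj = 0.0279 from edgeR), which corresponds to 1.30-fold and is under the fold minimum. Without aged replicate 4 the log2FC was 0.53 (padj = 0.000917 from edgeR), and padj was above 0.05 when any 1 of 6 libraries was left out, namely young adult replicate 2, 3 or 4 or aged replicate 1, 2 or 3 (0.0502 to 0.0877).

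Pde1b (ENSMUSG00000022489, chromosome 15, 103411286 to 103439706, plus strand), a phosphodiesterase switched on by calcium and calmodulin, had 104.6, 86.8, 109.5 and 114.3 CPM at 6m, against 147.9, 148.7, 140.8 and 105.9 CPM at 24m. Again 3 aged libraries were above all young adult libraries and aged replicate 4 was among them. The log2FC was 0.36 (SE 0.141, 95% interval 0.07 to 0.65, padj = 0.066 from edgeR), and without aged replicate 4 it was 0.50 (padj = 0.0112 from edgeR), still under the fold minimum. With all 8 libraries, padj from edgeR was 0.0195 with library sizes alone in place of TMM. It was 0.0415 with the filterByExpr filter and 0.0331 with more than 5 counts in every library. In these fits too the log2FC was under the fold minimum, and padj from DESeq2 and limma-voom stayed above 0.05. The exons of Pde1b share 2453 bases with Ppp1r1a on the opposite strand, which had 283.1 ± 44.7 CPM at 6m, against 196.9 ± 7.23 CPM at 24m (log2FC -0.52, padj = 0.00192 from edgeR). The strand setting of the counting is not given in the sources used here, so the part of these reads in the Pde1b value was not tested.

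Pde10a (ENSMUSG00000023868, chromosome 17, 8744204 to 9205482, plus strand), the phosphodiesterase most typical of striatal neurons, was read only 6, 2, 8 and 6 times at 6m and 5, 5, 4 and 7 times at 24m. The 7.12 ± 2.62 and 5.83 ± 1.2 CPM overlapped, and the log2FC of -0.37 (SE 0.417, 95% interval -1.22 to 0.49, padj = 0.577 from edgeR) leaves room for a decrease past the fold minimum but not for an increase past it. Among other phosphodiesterases, Pde1a, a second calmodulin-dependent enzyme, fell from 25.1 ± 1.74 to 12.6 ± 4.48 CPM without overlap between the ages (log2FC -1.01, SE 0.279, padj = 0.0115 from edgeR).

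Per kilobase of canonical transcript, the 8 mRNAs spanned a wide range of levels. Penk (182.2 CPM per kb) and Ppp1r1b (179.7 CPM per kb) led on this scale, with Penk the higher in 4 of 8 libraries. Tac1 (35.1 CPM per kb) and Pde1b (27.3 CPM per kb) came next, with Tac1 higher in 7 of 8 libraries. Drd2 (9.53 CPM per kb) was above Adora2a (7.46 CPM per kb) in 6 of 8, although their ranges overlapped. Drd1 (1.08 CPM per kb) and Pde10a (0.833 CPM per kb) were lowest and in no fixed order, with Drd1 higher in 4 of 8 libraries. Transcript lengths are annotated, from 2053 bases for Ppp1r1b to 7769 for Pde10a. Since a direct RNA read stands for 1 molecule, plain CPM is the closer measure of molecule numbers. It gives another order, in which Pde1b (119.8 CPM) precedes Tac1 (83.8 CPM) and Pde10a (6.48 CPM) precedes Drd1 (4.26 CPM). In plain CPM Penk (501.0 CPM) was also above Ppp1r1b (368.9 CPM), with more reads in every library but aged replicate 1.

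Ratios of members within a library do not depend on scaling between libraries, and are given as descriptions without a test. Reads of Ppp1r1b per read of Penk were 0.79, 0.54, 0.563 and 0.614 in the young adult libraries and 1.07, 0.998, 0.833 and 0.575 in the aged libraries, so that 3 aged libraries exceeded all young adult ones and aged replicate 4 was among these. Together both genes held between 75.9% and 79.2% of all reads on the 8 members in every library. Penk reads per Tac1 read overlapped between the ages, with 6.69 ± 1.48 at 6m and 5.65 ± 0.852 at 24m. The indirect pathway members (Penk, Drd2 and Adora2a) held 7.0 ± 1.45 reads per read of the direct pathway members (Tac1 and Drd1) at 6m and 5.85 ± 0.899 at 24m, again overlapping. This ratio is mostly that of the peptides. From the receptors alone it was 17.5 ± 8.03 at 6m and 9.72 ± 3.79 at 24m but rests on the few Drd1 reads.

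**Figure D2:**
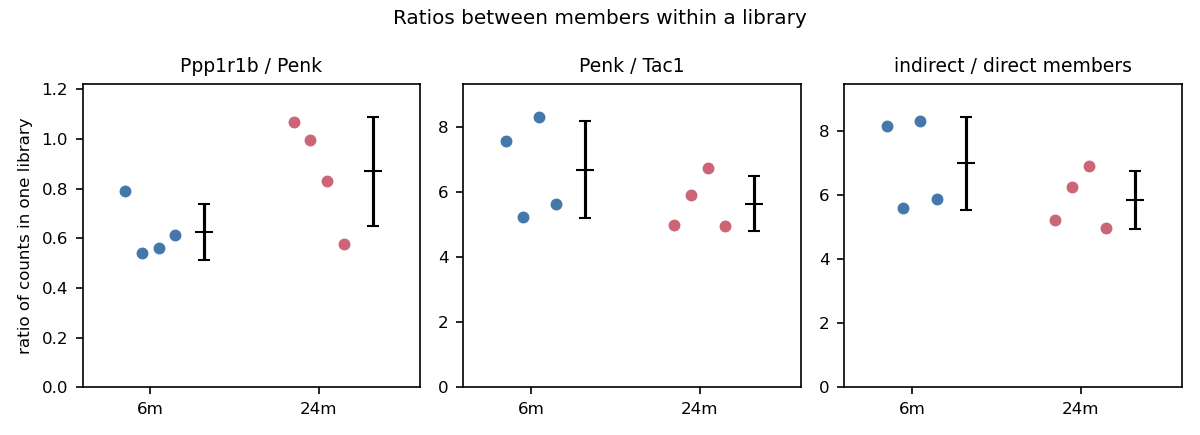
Ratios of read counts within a library (linear axes from 0) for Ppp1r1b over Penk, Penk over Tac1, and indirect over direct pathway members, in 4 young adult (6m, blue) and 4 aged (24m, red) libraries, with mean and SD in black. The ages overlap in all 3 panels; in the left panel 3 aged points, from 0.833 to 1.07, lie above the highest young adult point at 0.79.

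Among mice of one age the correlations between the 7 tested members had no common sign. With the mean of each age removed, Pearson's r of log2 CPM across the 8 libraries ranged from -0.61 (Adora2a and Pde10a) to 0.84 (Ppp1r1b and Pde1b) over the 21 pairs of tested members, with a median of -0.03, and was positive for 10 pairs. These values share libraries and depth and are a description. At 6m the coefficient of variation was 26.6% for Adora2a against 25.6% from counting, and 36.8% for Pde10a against 42.6%. For such genes r cannot show whether they varied with others. Ppp1r1b had an r of -0.54 with Penk and of -0.60 with Tac1. In aged replicate 4 the deviation from the age mean was -0.42 for Ppp1r1b and -0.34 for Pde1b, against 0.13 for Penk and 0.30 for Tac1. Whether any pair of members varied together was not tested. By the same age-centred values, the genes most like the mean of the tested members were led by Syp, Cdk2ap1, Azin2 and Tor2a, with r between 0.956 and 0.979 over 8 libraries among 5159 candidates. None of these remained among the first 5 when all libraries were thinned to the same depth, so this order is not stable. For the 19 other striatal genes among the candidates the median r was 0.16, against 0.07 over all candidates.

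Further genes known for high expression in striatal projection neurons were read from a list of 40, of which 27 were abundant enough to be tested. Of these, 6 rose, 1 fell and 20 were not called, where 10.3% of all tested genes were higher and 4.17% lower. The median log2FC of the list was 0.27. The list was chosen with earlier results of these data known, so these counts are a description only. By adjusted p alone 11 genes passed, against 21.7% of all tested genes. Of the genes that missed only the fold minimum, Ptpn5 and Pcp4l1 (log2FC 0.47 and 0.54) were higher. Rgs9 and Rasgrp2 (log2FC -0.46 each) were lower. The risen genes described here belong to G protein and cAMP signalling or to channel and synapse regulation. Gng7, the G protein gamma subunit that partners the olfactory G protein at the receptors from Drd1 and Adora2a (chromosome 10, 80784447 to 80850779), had 13.5, 14.5, 8.71 and 17.6 CPM at 6m, against 38.1, 36.4, 38.4 and 32.2 CPM at 24m. All aged libraries were far above all young adult libraries (log2FC 1.40, SE 0.249, padj = 0.000291 from edgeR). Rasd2, a small GTPase known as Rhes (chromosome 8, 75940572 to 75950874), had 19.7, 18.1, 24.9 and 31.4 CPM at 6m, against 44.2, 54.1, 83.2 and 44.5 CPM at 24m, also without overlap (log2FC 1.22, SE 0.23, padj = 0.000533).

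Syndig1l (chromosome 12, 84722573 to 84745701) had a log2FC of 1.14 (SE 0.242, padj = 0.00161 from edgeR) and Kcnip2, a subunit of A-type potassium channels, one of 0.74 (SE 0.172, padj = 0.00324), both without overlap between the ages.

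Adcy5 (chromosome 16, 34975023 to 35126113), the main adenylyl cyclase of the striatum and the enzyme on which the receptors from Drd1, Drd2 and Adora2a converge, rose from 50.3 ± 7.02 to 78.4 ± 6.61 CPM, with no overlap between the ages (log2FC 0.63, SE 0.158, padj = 0.00582 from edgeR). Without young adult replicate 1 its log2FC was 0.55, under the fold minimum. In the other direction Bcl11b (chromosome 12, 107876656 to 107970417), a transcription factor of striatal neurons that is also present in deep cortical layers, had 10, 5, 15 and 12 reads at 6m and 3, 5, 5 and 6 reads at 24m. In CPM every aged library was below every young adult library (log2FC -1.43, SE 0.38, padj = 0.00916 from edgeR).

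Bcl11b and the risen genes other than Adcy5 kept their calls in every alternative in which they were tested. Of the most read genes of the list, Crym had a log2FC of -0.13 (SE 0.109, padj = 0.44 from edgeR), Arpp19 one of -0.06 (SE 0.12, padj = 0.78) and Ptpn5, the striatal-enriched phosphatase STEP, one of 0.47 (SE 0.139, padj = 0.0164), under the fold minimum. The remaining 13 genes of the list, among them Isl1 with 2 reads and Ebf1 with 8 reads in all, were too low to test. Gng7 shares 257 exon bases with the pseudogene Gm3828 on its own strand, and Adcy5 and Syndig1l overlap noncoding RNAs on the opposite strand.

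**Figure D3:**
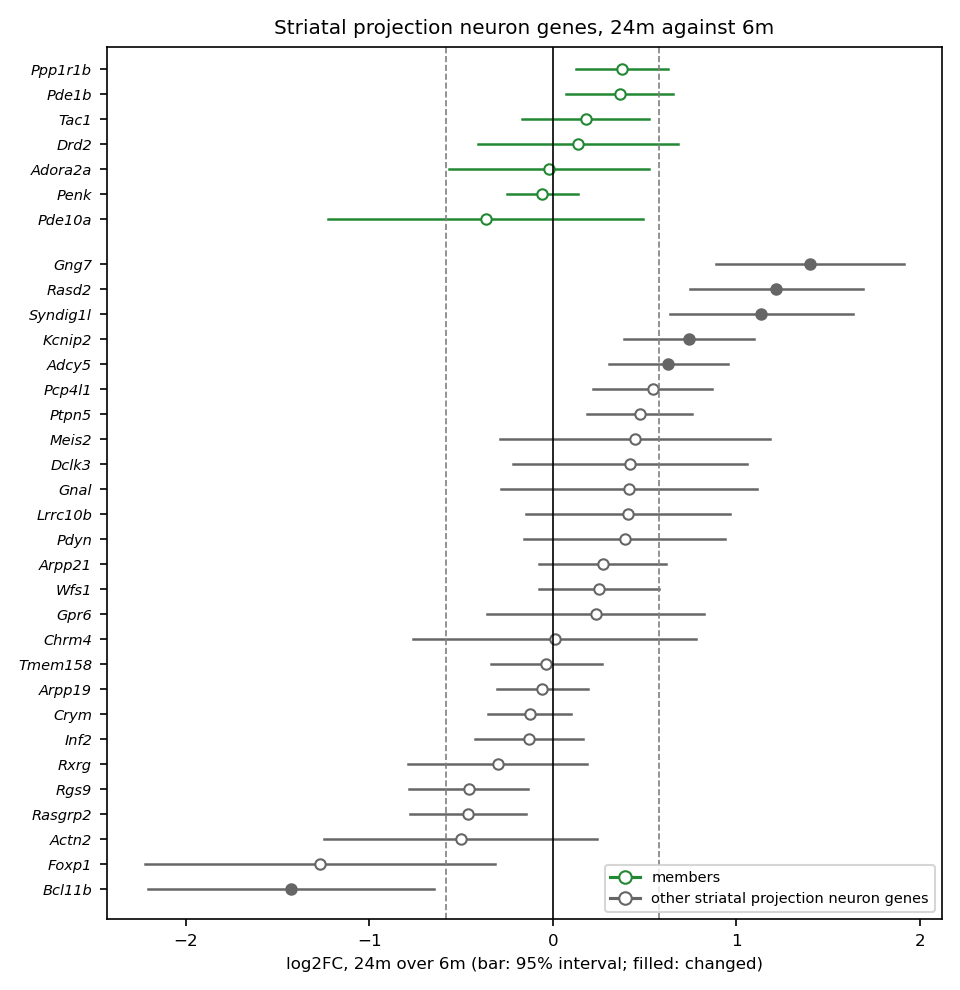
Log2FC (24m over 6m) with 95% interval for the 7 tested members (green) and 26 of the 27 other striatal projection neuron genes (grey); filled points are called changed and dashed lines mark the fold minimum of 0.58 in each direction. All 7 members are open points between -0.37 and 0.38, and 5 grey points are filled to the right and 1, Bcl11b at -1.43, to the left.

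The members act through a cascade shared with other neurons, from G proteins over cAMP to kinases and phosphatases. Of 44 genes of dopamine, adenosine and cAMP signalling, 33 were tested, of which 10 rose, 1 fell (Pde1a, above) and 22 were not called. That is 33.3% called, beside 14.5% of all tested genes, and the median log2FC was 0.55. This list was chosen with earlier results of these data known and was not matched for read depth, so its share is a description only. By adjusted p alone 17 genes passed, against 21.7% of all tested genes. Among kinase subunits, Prkar1b, a regulatory subunit of protein kinase A, had 199.4, 224.2, 214.1 and 286.3 CPM at 6m, against 384.1, 448.1, 430.0 and 425.7 CPM at 24m, with no overlap (log2FC 0.87, SE 0.108, padj = 2.59e-06 from edgeR), and shares 500 exon bases with Gm15672 on its strand. The catalytic subunit Prkacb also rose (log2FC 1.26, SE 0.301, padj = 0.00395). Cdk5r1 encodes p35, the activator of the kinase Cdk5, which phosphorylates DARPP-32 at another site, and rose from 9.27 ± 1.72 to 39.2 ± 14.1 CPM (log2FC 2.04, SE 0.301, padj = 3e-05 from edgeR). Cdk5 itself had a log2FC of -0.28 and did not pass the test (padj = 0.0743).

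On the phosphatase side, Ppp3r1, the regulatory subunit of calcineurin, which dephosphorylates DARPP-32, rose from 43.0 ± 4.25 to 100.4 ± 20.2 CPM (log2FC 1.26, SE 0.17, padj = 9.53e-06 from edgeR), and shares 462 exon bases with Dnaaf10 on its strand. Of the catalytic subunits of protein phosphatase 1, the target of DARPP-32, Ppp1cb rose (log2FC 0.96, SE 0.216, padj = 0.00261 from edgeR), whereas Ppp1ca had a log2FC of -0.09 (SE 0.108, padj = 0.59) and Ppp1cc one of -0.12 (SE 0.114, padj = 0.493). Ppp1cb shares 1908 exon bases with Gm43312 on its strand. The G protein subunits Gnao1 (log2FC 0.76, padj = 0.000634), Gnai2 (log2FC 0.60, padj = 0.00101) and Gnb1 (log2FC 0.68, padj = 0.00285) rose as well by the edgeR test; the call of Gnb1 was lost without aged replicate 3, and that of Gnai2 without that library, aged replicate 2 or young adult replicate 2. The stimulatory subunit Gnas, the most read gene of the list, had a log2FC of -0.002 (SE 0.0901, padj = 0.991), Calm2 one of 0.09 (padj = 0.531) and Calm3 one of 0.56 (padj = 2.16e-05 from edgeR), under the fold minimum. Most of these genes are expressed throughout the brain, so their values are not specific to the striatum.

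**Figure D4:**
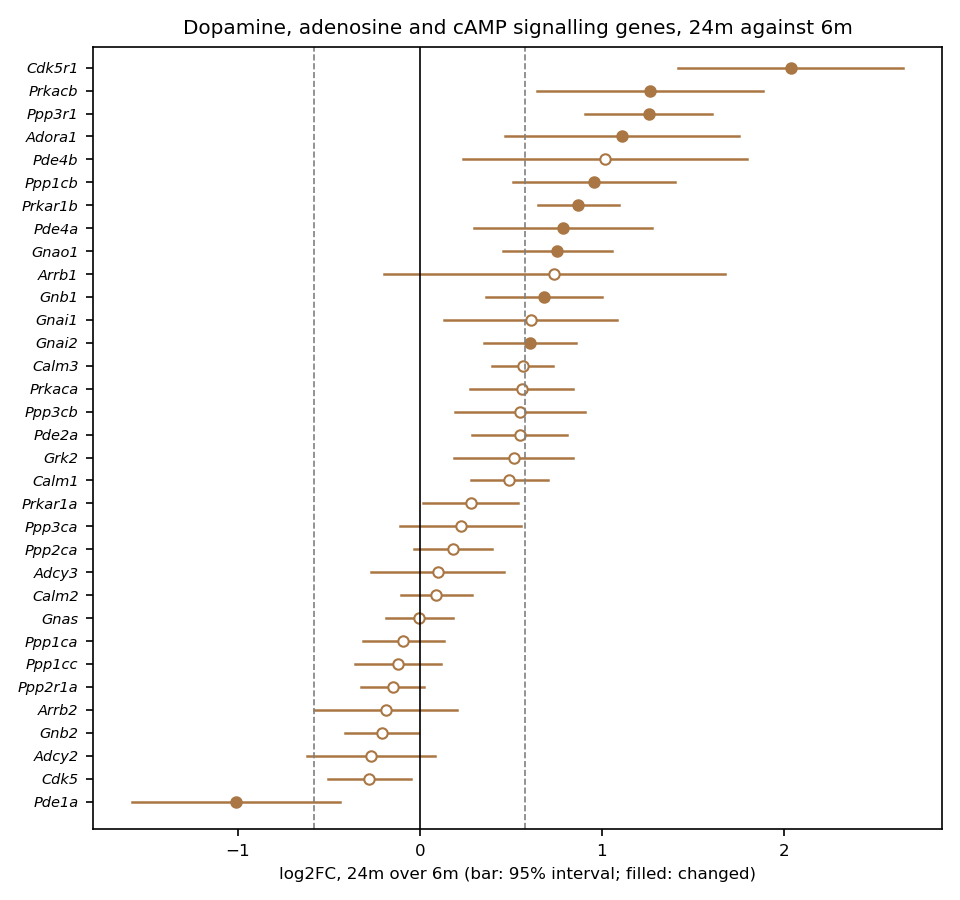
Log2FC (24m over 6m) with 95% interval for the 33 tested genes of dopamine, adenosine and cAMP signalling; filled points are called changed and dashed lines mark the fold minimum of 0.58. The filled points run from Cdk5r1 at 2.04 down to Gnai2 at 0.60 on the right, and Pde1a at -1.01 is the filled point on the left.

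Dopamine reaches these neurons from midbrain axons. Genes of its synthesis and transport were read from a whole hemisphere, so their values are not specific to that source. Th, the rate-limiting enzyme of dopamine synthesis, had 41.7 ± 7.29 CPM at 6m, against 29.0 ± 7.33 CPM at 24m (log2FC -0.48, SE 0.211, padj = 0.104 from edgeR). Ddc, the decarboxylase that follows it, had a log2FC of 0.17 (SE 0.315, padj = 0.746). The dopamine transporter Slc6a3 had 3, 0, 0 and 6 reads at 6m and 7, 8, 7 and 13 reads at 24m and passed the test as higher (log2FC 1.6, SE 0.553, padj = 0.0392 from edgeR), but it lost this call in 7 of 17 alternatives, with both DESeq2 fits and without any 1 of 5 libraries. The vesicular transporter Slc18a2 had 6 reads in all.

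Other cell types and regions moved between the same libraries, and their part in the values above was not tested. The counts of called markers that follow stand beside 10.3% of all tested genes called higher and 4.17% called lower. Summed over the 8 members, the level was 1069 ± 48.5 CPM at 6m and 1194 ± 80.9 CPM at 24m, with ranges of 1007 to 1123 and 1107 to 1280 CPM. The sum of 8 general neuronal markers lay between 2643 and 2800 CPM in young adult and between 3189 and 3319 CPM in aged libraries, without overlap. Snap25 alone of the 8 was called changed. By adjusted p alone 7 of the 8 passed the edgeR test, all higher but Tubb3 (log2FC -0.30, padj = 0.0353). Of the GABAergic markers, 2 of 4 rose, among them Gad1 (log2FC 0.75, padj = 0.00386 from edgeR), while Gad2 had a log2FC of -0.48 (padj = 0.243) and Slc32a1 one of 0.34 (padj = 0.0435), under the fold minimum. None of 5 tested interneuron genes was called. By adjusted p alone Sst passed as lower (log2FC -0.27, padj = 0.0283 from edgeR), with every aged library below every young adult library. Of the glutamatergic markers of cortex and hippocampus, 2 of 7 rose (Slc17a7 and Tbr1), and the list spanned 660.0 to 766.7 CPM at 6m and 891.3 to 1228 CPM at 24m. Cerebellar genes rose for 4 of 9 (Cbln1, Cbln3, Zic2 and Car8), with summed levels of 448.1 to 818.5 and 679.6 to 996.9 CPM. In the olfactory bulb list, of which 1 gene was tested, Doc2g fell (log2FC -1.54, padj = 0.0148 from edgeR), and it shares 3108 exon bases with Gm49405 on its strand. No thalamic gene (4 tested) and no hypothalamic gene (8 tested) was called.

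Outside neurons, the counts again stand beside 10.3% of all tested genes called higher and 4.17% called lower. Gfap, Slc1a3 and Gja1 of the astrocyte list rose and Slc1a2 fell, with summed levels of 2231 to 2721 CPM at 6m and 2277 to 2989 CPM at 24m. Of 7 oligodendrocyte genes 2 rose, among them Mbp, and their list spanned 2003 to 2574 and 2777 to 3638 CPM. Tmem119 of the microglial list rose (log2FC 1.03, padj = 0.0165 from edgeR), and that list spanned 674.5 to 744.6 and 845.3 to 1084 CPM. None of 2 endothelial and 3 choroid plexus genes tested was called. By adjusted p alone 1 gene of each list passed, both lower. These were Ly6c1 (log2FC -0.578, padj = 0.015 from edgeR), just short of the fold minimum and without overlap between the ages, and Enpp2 (log2FC -0.46, padj = 0.0055). Summed levels were 90.4 to 119.5 and 66.0 to 94.7 CPM for endothelium and 3085 to 4599 and 2387 to 4605 CPM for the choroid plexus.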

How the data were processed

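Raw counts of reads for each Ensembl gene were deposited. According to the methods, the authors ran direct RNA libraries on a MinION, aligned to GRCm39 with minimap2 (2.24 in the submitters' processing notes) and counted with featureCounts; strand and multi-mapping settings are not given in the sources used here. The low-count filter and the quantile and median normalization they applied afterwards are not in these counts.

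Identifiers were matched to GENCODE vM39 (same build; 22281 of 22430 matched). The test was run in edgeR 4.0.16 (R 4.3.3) with TMM scaling and a single term for age; log2FC intervals are at 95 percent from its F statistic. CPM use the same scaling, and likeness used log2 CPM with a prior count of 2 over genes with a mean count of at least 20. Alternatives used DESeq2 1.42.0, limma 3.58.1, other scalings and filters, a replicate block, and each library left out. Near-identical copies (95 percent identity over 50 percent) were searched with BLAST+ 2.17.0, and no member had one. Of 18 changed genes searched, 1 had a match (Adora1, with Mybph). The exons of these 2 genes overlap on opposite strands, so the match is not a separate copy. The scripts were tested on simulated counts.

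The 8 members and all lists were chosen with earlier results of these data known. Named were all members; the changed genes (at most 10 by p) and the 3 most read of the 2 pathway lists; all tested peptide enzymes and dopamine genes; and changed or absent markers. Other genes were named after their values were seen. A few genes that this rule names are not reported here, but stay in the counts.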

Additional observations from a re-analysis of the deposited data

Results flagged for a closer look

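Of 42 groups of 4 libraries examined by the gap between an extreme library and the next (Dixon's test at 95 percent), 2 passed, where chance gives about 2.1. The total of young adult replicate 2, 573152 reads, lay below the other young adult totals of 818963 to 843706. Pde10a in aged replicate 1, at 7.62 CPM, lay above the other aged libraries at 5.12 to 5.37 CPM, a difference of few reads.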

How the results depend on the processing

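The count of changed members was 0 in every fit that kept the fold minimum, including each fit without 1 library, and 1 (Ppp1r1b) by adjusted p alone in the edgeR fit with TMM scaling. By adjusted p alone, 2038 of all genes, 11 other striatal genes and 17 signalling genes were called, against 1359, 7 and 11. DESeq2 called 834 genes in all on raw and 797 on quantile-normalized counts. Library sizes alone, which moved the median of all genes to 0.10, gave 19 signalling genes. Leaving out 1 library gave 989 to 1594 genes in all, 6 to 8 other striatal genes and 7 to 16 signalling genes, with 7 without aged replicate 3.

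Signs near 0 turned. Penk had a log2FC of 0.0477 with library sizes alone, 0.0504 with limma-voom and 0.0868 with DESeq2 on quantile-normalized counts. Adora2a had 0.0864 with library sizes alone, 0.00311 with filterByExpr and 0.0277 with more than 5 counts in every library. Without 1 library, Penk ranged from -0.0952 to 0.000253, Drd2 from -0.12 to 0.31 and Adora2a from -0.15 to 0.16. Ppp1r1b, Tac1, Pde1b and Pde10a kept their sign in every fit that tested them. Pde10a was too low to be tested with filterByExpr, with more than 5 counts in every library or without young adult replicate 3, and depth limits it and Drd1 most. The log2 difference of the indirect to direct ratio was -0.25 and moved to -0.80 without Penk and Tac1. Of the 5 genes most like the members, 3 remained with a prior count of 0.5 and 0 after thinning; the cause of these moves was not tested.

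With the replicate number as a block, 1308 genes and again 0 members were called. The numbers are not stated to pair mice, and same-numbered libraries did not deviate together (correlations from -0.16 to 0.06; 1 of 4 young adult libraries was closest to its own number).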
